A study of Mus musculus with 4 samples.

Results

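The integrated stress response and the unfolded protein response were followed in mouse liver through 39 genes, chosen as the rows of the deposited expression table that carry 1 of 39 symbols. These symbols matched 40 of the 56748 rows, because Ddit3 is listed under 2 entries, and the second entry, of 105 bases, was at 0 in every library. The genes fall into 4 groups by role: ATF4 with its relatives and targets (18 genes), the stress sensors of the endoplasmic reticulum (ER) with Xbp1 (4 genes), ER chaperones and folding enzymes (14 genes), and ER-associated degradation (3 genes). The tested livers came from 2 NSG mice given JIB-04, an inhibitor of Jumonji histone demethylases, by oral gavage at 55 mg/kg for 5 doses, with doses given 2 times a week. The livers they were set against came from 2 untreated NSG mice, which received no vehicle, so the drug cannot be told apart from the gavage and its carrier. All 4 animals carry the wild-type label and share the NSG background, an immunodeficient strain without mature B, T or natural killer cells, and their age is not given in the sources used here. Each library came from a separate mouse, per the design text, and the SDs below are between animals.

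Cells answer a load of unfolded protein in the ER through the sensors PERK (Eif2ak3), IRE1 (Ern1) and ATF6. PERK phosphorylates the initiation factor eIF2, as the kinases GCN2, PKR and HRI do under amino acid shortage, viral RNA and heme shortage, and this slows protein synthesis in general while favoring translation of the ATF4 message. ATF4 then drives genes of amino acid synthesis and transport and the factor CHOP (Ddit3), whereas cleaved ATF6 and the spliced form of XBP1 drive the ER chaperones and the machinery that degrades misfolded proteins. Hepatocytes secrete most plasma proteins and carry an extensive ER, so ER chaperones are abundant in normal liver. ATF4 is controlled largely at translation, XBP1 by splicing and ATF6 by cleavage, and none of these steps is measured by a gene's summed RNA.

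Expression was measured as FPKM, fragment counts scaled to gene length and library size, with 36469514 to 43283827 reads recovered per library. Genes above 0 numbered 20178 to 21465 per library, mitochondrial genes took 3.46% to 4.52% of reads and the 50 most abundant genes took 34.5% to 37.5%. The hepatocyte marker list, with all 9 genes well above 0, summed to 49758 and 41745 FPKM in JIB-04 livers and to 70820 and 67221 FPKM in untreated livers, most of it albumin, with 8 of 9 log2 changes negative and none called. Neutrophil markers summed to 45.6 and 73.1 FPKM in JIB-04 livers and to 27.3 and 7.41 FPKM in untreated livers, and red cell markers to 655 and 1782 FPKM against 2952 and 1845 FPKM. The neutrophil sum was mostly S100a8, with 36.3 and 63.0 FPKM in JIB-04 livers and 6.68 and 2.40 FPKM in untreated livers, and of the other 7 markers Retnlg was higher, Ngp, Elane and Ly6g were lower and 3 overlapped, S100a9 among them. Red cell sums were lower in JIB-04 livers without overlap. Exocrine pancreas markers summed to 3.76 and 4.57 FPKM in JIB-04 livers and to 7.32 and 12.6 FPKM in untreated livers, with 2 of 8 at 0 in every library. Cela1 made most of these sums, with 3.33 and 4.09 FPKM in JIB-04 livers and 6.82 and 12.1 FPKM in untreated livers. Every other pancreas marker was under 1 FPKM in every library. Plasma and B cell markers were of interest because plasma cells are rich in ER chaperones. They summed to 12.6 and 25.0 FPKM in JIB-04 livers and to 4.66 and 14.3 FPKM in untreated livers, which overlapped. Most of this was Ighm, with 11.6 and 24.3 FPKM in JIB-04 livers and 3.74 and 13.7 FPKM in untreated livers. Under 1 FPKM, Jchain was higher, Cd79a was lower and Cd79b overlapped. The other 4 of the 8 genes, Igkc, Ms4a1, Mzb1 and Tnfrsf17, were at 0 in every library. Sums in JIB-04 and untreated livers overlapped for Kupffer (336 to 421 and 390 to 451 FPKM), endothelial (81.7 to 85.3 and 79.9 to 102 FPKM), cholangiocyte (36.1 to 43.8 and 34.4 to 40.1 FPKM) and T and natural killer cell markers (0.402 to 0.469 and 0.400 to 0.620 FPKM, with 5 of 8 genes at 0). Stellate cell markers summed to 102 and 111 FPKM in JIB-04 livers and to 142 and 113 FPKM in untreated livers. The part of these shifts in the results was not tested, and in whole liver a lower share of 1 cell type and less RNA per cell cannot be told apart.

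Of the 39 genes, only Pdia4 was called higher in JIB-04 livers, and none was called lower. The test was limma on log2(FPKM + 1), over the 10819 genes with a mean of at least 1 FPKM, with a gene called at a Benjamini-Hochberg adjusted p under 0.05 over all of them. Passing the filter were 32 of the 39 genes, and 1 of these 32 was called higher, where 1.53% of all tested genes were called higher and 0.619% lower. At an unadjusted p under 0.05, 11 of the 32 were higher in JIB-04 livers, against 9.06% of all tested genes, and 3 were lower, against 6.47%. In 15 of the 32 genes both JIB-04 livers were above both untreated livers, an ordering that 24.6% of all tested genes showed, and in 5 both were below, as in 21.8% of all tested genes. The median log2 change of the 32 genes was 0.25, beside 0.01 over all tested genes. With 2 animals a group, the smallest p that an exact two-sided permutation test of 1 gene can reach is 0.333, and the moderated test across all genes was used instead.

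Most of the genes that lay higher in JIB-04 livers were chaperones and folding enzymes. Of these 14, 11 had both JIB-04 livers above both untreated livers, beside 24.6% of all tested genes. None had both below, beside 21.8% of all tested genes. The median log2 change was 0.39, with a range from -0.15 to 0.70. Their summed level was 1115 and 1119 FPKM in JIB-04 livers and 761 and 887 FPKM in untreated livers, so that the JIB-04 mean was 1.36 times the untreated one. The 11 tested genes of the ATF4 group were split, with a median log2 change of 0.15. Without overlap, 4 were higher and 3 lower, beside 24.6% and 21.8% of all tested genes. The summed level of the group overlapped, at 191 and 209.9 FPKM in JIB-04 livers and 207 and 206 FPKM in untreated livers. The sensors with Xbp1 overlapped in all 4 genes (median log2 change -0.04), and the 3 degradation genes all had negative log2 changes (median -0.15). When FPKM was rescaled without the 50 most abundant and the mitochondrial genes, 10 of the 14 chaperones and folding enzymes still had both JIB-04 livers above both untreated livers. Over all tested genes, that rescaling gave 2108 genes with both JIB-04 livers above and 3023 with both below.

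**Figure D1:**
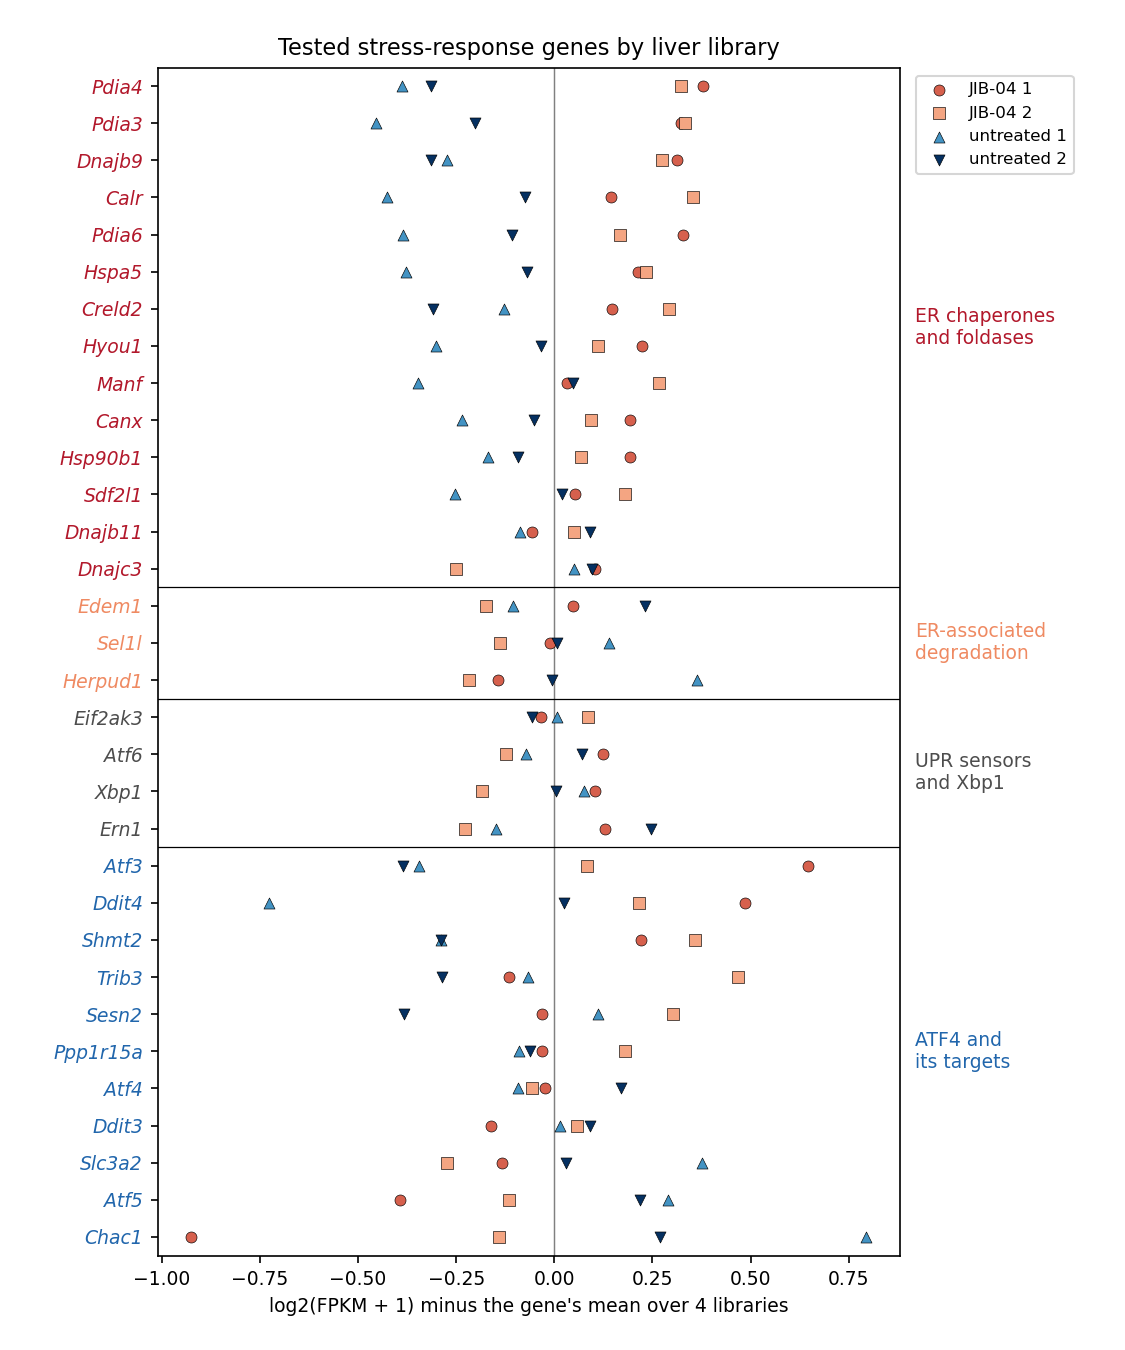
Each of the 32 tested genes is a line of 4 points, the log2(FPKM + 1) of JIB-04 1, JIB-04 2, untreated 1 and untreated 2 minus the gene's mean over the 4 libraries, grouped by role. The JIB-04 points lie right of both untreated points in 11 of 14 chaperones and folding enzymes, while the genes of ATF4 and its targets lie on either side and the sensors overlap.

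Promoter windows were searched for the sequence through which ATF6 and XBP1 are known to act on chaperone genes. The ER stress response element is CCAAT, then 9 bases, then CCACG, and it was searched on both strands from 250 bases before to 50 bases after each RefSeq gene start (GRCm38.p6; the expression table is on GRCm39). It stood in 0.119% of all 32851 promoter windows and in those of 7 of the 12 chaperone and folding genes with a window, with 2 copies in Hsp90b1. The element is known from chaperone promoters such as that of Hspa5. Its high share among these genes was therefore given beforehand and is not a result of these data. A related element, ATTGG, then 1 base, then CCACG, called ERSE-II, stood in 0.0365% of all windows and in those of Dnajb11 and Herpud1. The XBP1-type element TGACGTGG, in 0.676% of all windows, was in none of the 35 genes with a window, and the windows of Pdia4, Pdia3, Dnajb9 and Sdf2l1 held none of these 3 elements. A match describes letters and not a bound site, and no match says only that these letters are not in this window. Capitals mark the fixed letters, and each line reads 5′ to 3′ on the strand given, with the matched bases lying before the gene start except in Dnajb11, where the element begins 7 bases after it.
Hspa5 ERSE, chr2:34772020-34772048, + strand: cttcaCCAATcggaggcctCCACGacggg
Calr ERSE, chr8:84847070-84847098, + strand: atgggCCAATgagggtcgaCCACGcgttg
Hsp90b1 ERSE, chr10:86705528-86705556, + strand: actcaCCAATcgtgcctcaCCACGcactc
Hsp90b1 ERSE, chr10:86705633-86705661, - strand: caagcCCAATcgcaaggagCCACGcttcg
Canx ERSE, chr11:50325795-50325823, - strand: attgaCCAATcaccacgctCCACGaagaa
Pdia6 ERSE, chr12:17266486-17266514, + strand: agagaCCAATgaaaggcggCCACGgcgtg
Creld2 ERSE, chr15:88819515-88819543, - strand: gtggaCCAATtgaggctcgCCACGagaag
Dnajc3 ERSE, chr14:118937822-118937850, + strand: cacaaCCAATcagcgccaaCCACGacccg
Dnajb11 ERSE-II, chr16:22857843-22857871, + strand: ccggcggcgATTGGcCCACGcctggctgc
Herpud1 ERSE-II, chr8:94386368-94386396, + strand: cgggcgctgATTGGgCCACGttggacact

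Longer stretches are given for Hspa5, Pdia4 and Herpud1. These are the best-studied chaperone promoter, that of the gene called higher, and that of a degradation gene whose level lay the other way. Each is the 250 bases before the gene start, read 5′ to 3′ on the gene's strand, with CCAAT and CCACG boxes in capitals on either strand (ATTGG and CGTGG being their complements). Hspa5 held 4 CCAAT boxes and 1 CCACG box, the Pdia4 stretch held 3 CCAAT boxes and 0 CCACG boxes, and Herpud1 held 2 of each.
Hspa5, chr2:34771840-34772089, + strand: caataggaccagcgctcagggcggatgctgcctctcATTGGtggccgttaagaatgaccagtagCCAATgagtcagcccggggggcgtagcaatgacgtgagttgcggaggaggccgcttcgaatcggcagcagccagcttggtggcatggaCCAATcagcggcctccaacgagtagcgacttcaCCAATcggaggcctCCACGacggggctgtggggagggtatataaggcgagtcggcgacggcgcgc
Pdia4, chr6:47813513-47813762, - strand: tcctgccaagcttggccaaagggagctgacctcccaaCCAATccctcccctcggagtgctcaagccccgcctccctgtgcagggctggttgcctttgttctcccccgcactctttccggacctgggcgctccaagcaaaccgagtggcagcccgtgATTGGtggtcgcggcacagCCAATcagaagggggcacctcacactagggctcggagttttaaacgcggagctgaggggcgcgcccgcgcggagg
Herpud1, chr8:94386179-94386428, + strand: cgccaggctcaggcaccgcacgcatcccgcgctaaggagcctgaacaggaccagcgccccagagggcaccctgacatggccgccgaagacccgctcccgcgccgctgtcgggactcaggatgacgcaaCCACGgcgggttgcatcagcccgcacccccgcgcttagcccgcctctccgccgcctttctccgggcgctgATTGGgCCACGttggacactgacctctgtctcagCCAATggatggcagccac

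Pdia4, a protein disulfide isomerase of the ER lumen that forms and rearranges disulfide bonds, had 93.2 and 89.6 FPKM in JIB-04 livers and 54.4 and 57.3 FPKM in untreated livers. The untreated livers lay close together, and both JIB-04 livers were well above them. Its mean was 91.4 ± 2.52 FPKM in JIB-04 livers and 55.9 ± 2.07 FPKM in untreated livers (SD, n = 2 each), 1.64-fold higher, with a log2 change of 0.70 (SE 0.118) and an adjusted p of 0.0398 (limma). The gene (ENSMUSG00000025823) is protein-coding and lies on chromosome 6 at 47773075 to 47790364 on the minus strand in the deposited GRCm39 table, and its values rest on 9582 and 7893 reads in JIB-04 livers and on 4788 and 5197 reads in untreated livers. The call was lost when any 1 of the 4 libraries was left out, with an adjusted p of 0.109 to 0.191, while the log2 change stayed between 0.64 and 0.74 over all 12 alternatives.

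Pdia3, the disulfide isomerase that works on glycoproteins held by calnexin and calreticulin, had 162 and 163 FPKM in JIB-04 livers and 93.9 and 112 FPKM in untreated livers. The groups were apart, and untreated 1 was the lowest library. Its mean was 1.58-fold higher in JIB-04 livers, with a log2 change of 0.66 (SE 0.137) and an adjusted p of 0.0695 (limma), short of the threshold. The opposite-strand gene Catsper2, which overlaps it, averaged 1.29 FPKM in JIB-04 livers and 1.08 FPKM in untreated livers. Dnajb9, an ER J-protein that acts as a co-chaperone of BiP and restrains IRE1, had 33.1 and 32.2 FPKM in JIB-04 livers and 21.7 and 21.1 FPKM in untreated livers. The 2 livers of each group were nearly alike and the groups were well apart. The fold was 1.52, with a log2 change of 0.59 (SE 0.114) and an adjusted p of 0.0589 (limma), also short of the threshold.

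Calr, calreticulin, a calcium-binding lectin of the ER lumen, was the most abundant of the 39 genes, with 221 and 256 FPKM in JIB-04 livers and 148 and 189.8 FPKM in untreated livers. Its groups did not overlap, but the spread within each was wide, and the log2 change of 0.50 (SE 0.166) had an adjusted p of 0.209 (limma) and was 0.32 without untreated 1. Hspa5, which encodes BiP, the main ER chaperone and the protein that holds the sensors inactive, had 157 and 159.6 FPKM in JIB-04 livers and 104 and 129 FPKM in untreated livers. The JIB-04 livers were nearly equal and above both untreated livers, of which untreated 1 was the lower. The fold was 1.36, with a log2 change of 0.45 (SE 0.146), which was 0.29 without untreated 1, and an adjusted p of 0.203 (limma). Hsp90b1, the ER member of the HSP90 family, had 137 and 126 FPKM in JIB-04 livers and 106 and 112 FPKM in untreated livers. This was a narrower gap, again without overlap, with a fold of 1.20, a log2 change of 0.26 (SE 0.125) and an adjusted p of 0.391 (limma). A same-strand long noncoding gene, Gm15344, overlaps Hsp90b1 and averaged 5.59 FPKM in JIB-04 livers and 3.56 FPKM in untreated livers.

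Among the remaining folding genes, Pdia6, a disulfide isomerase known to attenuate IRE1 and PERK signaling, had 102 and 91.5 FPKM in JIB-04 livers and 62.1 and 75.4 FPKM in untreated livers, without overlap (adjusted p 0.160, limma). Creld2, an ER-stress-induced protein with isomerase activity, had 16.9 and 18.8 FPKM in JIB-04 livers and 13.8 and 12.1 FPKM in untreated livers, without overlap (adjusted p 0.160, limma). Hyou1, a large ER chaperone and nucleotide exchange factor for BiP, had 14.2 and 13.1 FPKM in JIB-04 livers and 9.60 and 11.7 FPKM in untreated livers (adjusted p 0.306, limma). In these 3 genes every JIB-04 liver was above every untreated liver. Their log2 changes, taken between group means, were 0.33 to 0.49, and without untreated 1 that of Hyou1 was 0.20. Canx, calnexin, the membrane lectin that holds new glycoproteins, had 84.7 and 79.1 FPKM in JIB-04 livers and 62.8 and 71.3 FPKM in untreated livers, also without overlap (log2 change 0.29). Sdf2l1, a partner of the BiP complex, had 15.8 and 17.4 FPKM in JIB-04 livers and 12.6 and 15.5 FPKM in untreated livers, separated by only a small margin (log2 change 0.23, and 0.096 without untreated 1 or 0.37 without untreated 2). Manf, a small secreted ER protein that binds BiP, had 18.3 and 21.7 FPKM in JIB-04 livers and 13.8 and 18.5 FPKM in untreated livers, with JIB-04 1 just below untreated 2 (log2 change 0.30, and 0.10 to 0.50 when each library was left out).

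For the J-protein co-chaperones Dnajb11 and Dnajc3 the groups overlapped. Dnajb11, which delivers unfolded proteins to BiP, had 18.3 and 19.8 FPKM in JIB-04 livers and 17.9 and 20.4 FPKM in untreated livers, with the JIB-04 values between the untreated ones and a log2 change of -0.00 (adjusted p 0.993, limma). Dnajc3, known as p58IPK, a BiP co-chaperone first described as an inhibitor of eIF2 kinases, had 40.6 and 31.6 FPKM in JIB-04 livers and 39.1 and 40.4 FPKM in untreated livers. Only JIB-04 2 stood below the others, and the log2 change was -0.15 (adjusted p 0.719, limma). Of the 7 genes with the CCAAT and CCACG element, 6 had both JIB-04 livers above both untreated livers and 1, Dnajc3, did not, close to the 11 of all 14 chaperones and folding enzymes and beside 24.6% of all tested genes. Pdia4, Pdia3 and Dnajb9, with the largest log2 changes of the chaperones, lacked the element in the window searched.

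The folding machinery beyond the 39 genes was described through lists of the same pathways. Of 27 other folding genes tested, none was called, 18 had a positive log2 change, as 51.4% of all tested genes had, and the median was 0.15, beside 0.01 over all tested genes. P4hb, protein disulfide isomerase itself, had 659 and 650.3 FPKM in JIB-04 livers and 436 and 424 FPKM in untreated livers, with both JIB-04 livers far above the untreated ones (log2 change 0.60, adjusted p 0.0754, limma). Prdx4, a peroxiredoxin of the ER lumen, lay the other way without overlap, with 39.5 and 35.9 FPKM in JIB-04 livers and 49.9 and 49.6 FPKM in untreated livers (log2 change -0.39, adjusted p 0.177, limma). Ero1b, an ER oxidase that recharges disulfide isomerases, had 5.94 and 5.94 FPKM in JIB-04 livers, between the 4.86 and 7.22 FPKM of untreated livers.

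Of 34 tested genes of ER translocation, N-glycosylation and export, 29 had a positive log2 change, 23 had both JIB-04 livers above both untreated livers, and 1 was called, beside 51.4%, 24.6% and 1.53% of all tested genes. That gene was Stt3b, a catalytic subunit of the oligosaccharyltransferase that adds N-glycans to proteins in the ER, with 36.4 and 38.1 FPKM in JIB-04 livers and 22.4 and 20.4 FPKM in untreated livers. It rose 1.74-fold without overlap, with a log2 change of 0.78 (SE 0.120) and an adjusted p of 0.0310 (limma), which became 0.0823 to 0.191 when a library was left out. The other 6 genes of the complex in the list missed the threshold, with log2 changes of 0.64 in Ostc, 0.54 in Stt3a, 0.52 in Ddost, 0.29 in Rpn2, 0.29 in Rpn1 and 0.18 in Dad1, and adjusted p-values from 0.0725 for Ostc to 0.582 for Dad1 (limma). Over the whole list the median was 0.23 on the log2 scale.

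ER-associated degradation, which moves misfolded proteins to the cytosol for the proteasome, showed no called gene. Herpud1, a membrane protein that organizes the ubiquitin ligase complex and a known target of both ATF4 and ATF6, had 119 and 113 FPKM in JIB-04 livers and 169 and 131 FPKM in untreated livers. Both JIB-04 livers were lower, and untreated 1 stood well above the other 3 libraries. The mean was 0.772 of the untreated one, with a log2 change of -0.36 (SE 0.157) and an adjusted p of 0.342 (limma). The log2 change was -0.18 without untreated 1 and -0.54 without untreated 2. Sel1l, the scaffold of the HRD1 ligase, had 14.6 and 13.3 FPKM in JIB-04 livers and 16.4 and 14.8 FPKM in untreated livers, with a narrow gap and a log2 change of -0.15. Edem1, which directs misfolded glycoproteins to degradation, had 28.6 and 24.3 FPKM in JIB-04 livers and 25.6 and 32.5 FPKM in untreated livers, which overlapped. Of 21 other degradation genes tested, none was called, where 1.53% of all tested genes were called higher and 0.619% lower. The log2 change was positive in 15, beside 51.4% of all tested genes, and the median was 0.02. Without overlap, 9 were higher and 2 lower, beside 24.6% and 21.8% of all tested genes. Syvn1, the HRD1 ligase itself, had 11.1 and 13.6 FPKM in JIB-04 livers and 8.96 and 9.70 FPKM in untreated livers (adjusted p 0.264, limma). The lowest p-values of that list belonged to Ubxn4 (log2 change 0.50, adjusted p 0.115) and Vcp, the ATPase that extracts proteins from the ER membrane (log2 change 0.49, adjusted p 0.117).

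The sensors themselves differed little in level. Ern1, which encodes IRE1, the kinase and nuclease that splices Xbp1, had 8.45 and 6.38 FPKM in JIB-04 livers and 6.80 and 9.26 FPKM in untreated livers. Eif2ak3, which encodes PERK, had 1.94 and 2.20 FPKM in JIB-04 livers and 2.03 and 1.90 FPKM in untreated livers. Atf6, the membrane-tethered factor, had 6.04 and 4.92 FPKM in JIB-04 livers and 5.15 and 5.78 FPKM in untreated livers. In all 3 genes the groups overlapped, with log2 changes of -0.10, 0.05 and 0.00. Xbp1, whose unspliced and spliced messages are added together here, had 76.4 and 62.5 FPKM in JIB-04 livers and 74.9 and 71.4 FPKM in untreated livers. The JIB-04 values again lay on either side of the untreated ones, with a log2 change of -0.08 (adjusted p 0.856, limma). The standard errors of these 4 log2 changes were 0.130 to 0.186. Changes much larger than these errors could also be missed with 2 animals a group. Dnajb9, for one, was not called at a log2 change of 0.59 (SE 0.114).

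Of 16 other signaling genes of the unfolded protein response, none was called, where 1.53% of all tested genes were called higher and 0.619% lower. The log2 change was positive in 7, beside 51.4% of all tested genes, and the median was -0.03. Without overlap, 4 were higher and 1 lower, beside 24.6% and 21.8% of all tested genes. Creb3l3, a liver-enriched ER-tethered factor related to ATF6, had 127 and 133 FPKM in JIB-04 livers and 104 and 96.2 FPKM in untreated livers, without overlap (log2 change 0.37, adjusted p 0.210, limma). Mbtps2, a protease that releases ATF6 and its relatives, had a log2 change of 0.19 (adjusted p 0.577, limma).

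ATF4 and the factors related to it did not share a direction. Atf4, the central factor of the integrated stress response, had 43.3 and 42.3 FPKM in JIB-04 livers and 41.2 and 49.6 FPKM in untreated livers. The groups overlapped, with a log2 change of -0.08 (adjusted p 0.855, limma). Ddit3, which encodes CHOP, had 2.93 and 3.58 FPKM in JIB-04 livers and 3.44 and 3.68 FPKM in untreated livers. It too overlapped, with a log2 change of -0.10 (adjusted p 0.793, limma), and the opposite-strand gene Mars1, which overlaps it, averaged 10.60 FPKM in JIB-04 livers and 11.96 FPKM in untreated livers.

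Atf3, a stress-induced factor downstream of ATF4, had 3.05 and 1.74 FPKM in JIB-04 livers and 1.04 and 0.983 FPKM in untreated livers. Both JIB-04 livers were higher, JIB-04 1 most of all, on 282 and 138 reads in JIB-04 livers and 82 and 80 reads in untreated livers. The mean was 2.37-fold higher, with a log2 change of 0.73 (SE 0.201) and an adjusted p of 0.146 (limma), and without JIB-04 1 the log2 change was 0.45. Atf5, a factor translated under eIF2 phosphorylation and abundant in liver, had 53.0 and 64.5 FPKM in JIB-04 livers and 85.7 and 81.6 FPKM in untreated livers. Both JIB-04 livers were lower, with a ratio of 0.702, a log2 change of -0.51 (SE 0.139) and an adjusted p of 0.140 (limma). Nup62, on the opposite strand and overlapping Atf5, averaged 4.24 FPKM in JIB-04 livers and 4.50 FPKM in untreated livers.

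Sequences of the C/EBP-ATF response element, to which ATF4 binds with C/EBP partners, were looked for in the same windows as TGATGNAA on either strand. The element stood in 3.97% of all 32851 windows and in those of 6 of the 17 genes of the ATF4 group with a window, as well as in Herpud1. The lines below show it in capitals, except for the free base, 5′ to 3′ on the strand given, and in Trib3 it begins 14 bases after the gene start.
Atf3, chr1:191183425-191183454, + strand: cgcggacttggTGATGcAAgtgcgagaagg
Chac1, chr2:119351038-119351067, - strand: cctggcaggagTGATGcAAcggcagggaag
Trib3, chr2:152344028-152344057, + strand: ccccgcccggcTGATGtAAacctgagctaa
Asns, chr6:7693214-7693243, - strand: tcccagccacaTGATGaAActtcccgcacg
Nupr1, chr7:126625562-126625591, + strand: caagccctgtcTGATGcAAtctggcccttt
Herpud1, chr8:94386306-94386335, - strand: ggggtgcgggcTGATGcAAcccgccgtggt
Vldlr, chr19:27216809-27216838, - strand: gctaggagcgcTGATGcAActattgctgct

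Genes with this element had values in opposite directions. Chac1, an enzyme that degrades glutathione and a sensitive ATF4 target, had 0.285 and 1.21 FPKM in JIB-04 livers and 3.23 and 1.94 FPKM in untreated livers, from 20 and 73 reads against 194 and 120 reads. Both JIB-04 livers were lower, JIB-04 1 by the most, with a ratio of 0.290, a log2 change of -1.06 (SE 0.323) and an adjusted p of 0.215 (limma), and without JIB-04 1 the log2 change was -0.67. Trib3, a pseudokinase that restrains ATF4 and CHOP, had 2.72 and 4.58 FPKM in JIB-04 livers and 2.85 and 2.30 FPKM in untreated livers. Only JIB-04 2 stood apart, with a log2 change of 0.35 (adjusted p 0.520, limma) that was 0.062 without it and 0.64 without JIB-04 1. Asns, asparagine synthetase, a classic target of amino acid shortage, was near the limit of detection in every liver, with 5 and 9 reads in JIB-04 livers and 6 and 2 reads in untreated livers, or 0.0426 and 0.0896 FPKM against 0.0598 and 0.0194 FPKM.

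None of the targets Ddit4, Ppp1r15a and Sesn2, which act on growth control and translation, was called. Ddit4, known as REDD1, an inhibitor of mTORC1, had 4.77 and 3.79 FPKM in JIB-04 livers and 1.49 and 3.20 FPKM in untreated livers. The groups were apart, although untreated 2 came close to JIB-04 2, with a log2 change of 0.70 (SE 0.270) and an adjusted p of 0.311 (limma). The log2 change was 0.32 without untreated 1 and 1.08 without untreated 2. Ppp1r15a, known as GADD34, the phosphatase subunit that reverses eIF2 phosphorylation, had 3.72 and 4.47 FPKM in JIB-04 livers and 3.54 and 3.62 FPKM in untreated livers. Its groups were separated by a small margin (log2 change 0.15, adjusted p 0.667, limma), with a log2 change of 0.045 without JIB-04 2 and 0.26 without JIB-04 1. Sesn2, a leucine sensor upstream of mTORC1, had 4.16 and 5.50 FPKM in JIB-04 livers and 4.69 and 3.04 FPKM in untreated livers, which overlapped (log2 change 0.27, and 0.025 to 0.52 when each library was left out).

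Targets of amino acid and one-carbon metabolism were split. Shmt2, the mitochondrial serine hydroxymethyltransferase that passes the carbon of serine to folate, had 61.1 and 67.3 FPKM in JIB-04 livers and 42.6 and 42.6 FPKM in untreated livers. The untreated livers were nearly identical and both JIB-04 livers were above them, with a fold of 1.51, a log2 change of 0.58 (SE 0.120) and an adjusted p of 0.0675 (limma). Slc3a2, the heavy chain shared by several amino acid transporters, had 11.3 and 10.2 FPKM in JIB-04 livers and 16.5 and 12.8 FPKM in untreated livers, with both JIB-04 livers lower (log2 change -0.40, adjusted p 0.265, limma). Without untreated 1 its log2 change was -0.23.

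The genes below the expression filter belonged to the ATF4 group, 7 in number, and were scarce in every liver. They were Asns, Psat1 and Phgdh of serine and asparagine synthesis, Mthfd2 and Aldh1l2 of mitochondrial folate metabolism, the lipoprotein receptor Vldlr and the stress factor Nupr1. Nupr1 had the highest levels of these, 0.315 and 0.336 FPKM in JIB-04 livers and 0.347 and 0.379 FPKM in untreated livers. Phgdh, which starts serine synthesis, had 7 and 0 reads in JIB-04 livers and 0 and 2 reads in untreated livers, and a count of 0 allows up to 3 reads. Aldh1l2 had 7 and 15 reads in JIB-04 livers and 4 and 2 reads in untreated livers. The groups of Psat1, Mthfd2 and Vldlr overlapped, between 0.0641 and 0.280 FPKM.

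**Figure D2:**
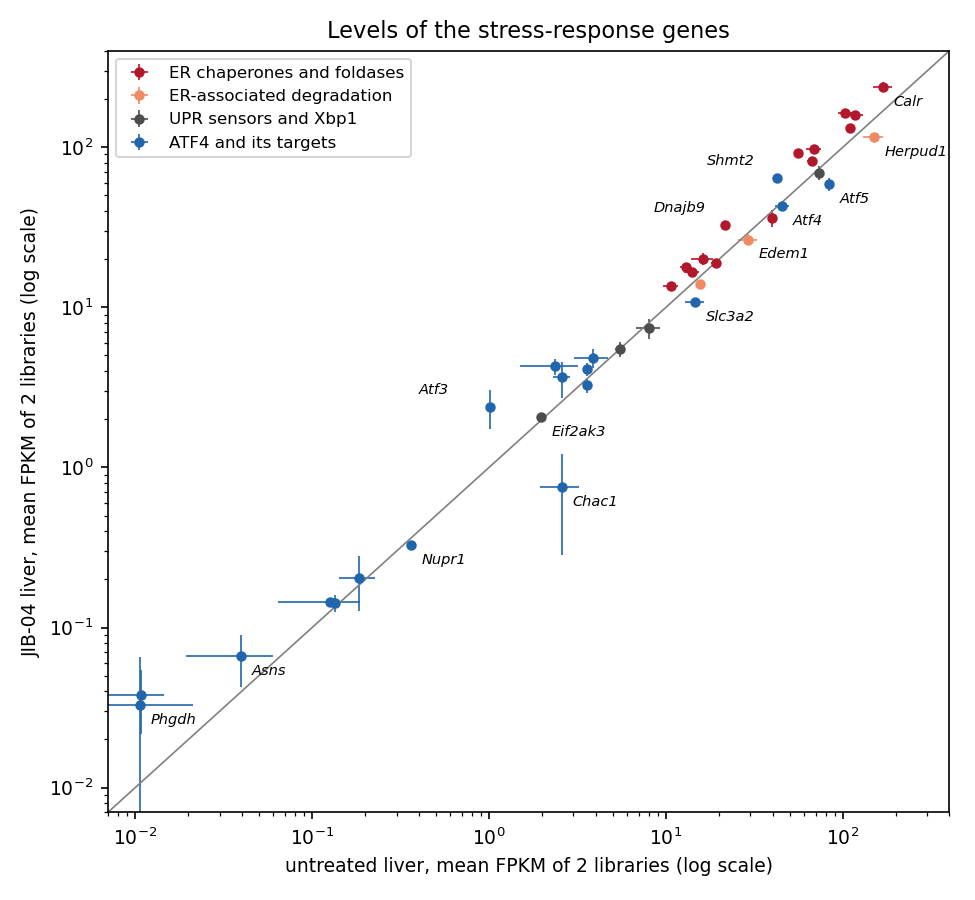
Mean FPKM in JIB-04 livers (vertical, log scale) is plotted against mean FPKM in untreated livers (horizontal, log scale) for the 39 genes, colored by role, with bars to the lower and higher of the 2 libraries and the line of equal means, and bars that reach 0 or below 0.007 FPKM run off the axis. Chaperones and folding enzymes sit high and mostly above the line, Chac1, Atf5 and Herpud1 lie below it, and 7 genes of the ATF4 group lie under 1 FPKM in both groups.

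Further genes around eIF2 and ATF4 were described through lists of their own. Of 14 genes of eIF2, its kinases and regulators, 1 was called, Impact, an inhibitor of the amino acid sensor kinase GCN2, with 4.93 and 4.97 FPKM in JIB-04 livers and 2.25 and 2.48 FPKM in untreated livers. It rose 2.09-fold without overlap, with a log2 change of 0.82 (SE 0.122) and an adjusted p of 0.0273 (limma), which became 0.0791 to 0.172 when a library was left out. The median of that list was 0.09, and of all tested genes 1.53% were called higher. Of 30 other ATF4 targets, 18 were tested and none was called, with a median log2 change of 0.16. The log2 change was positive in 10 and negative in 8, where 51.4% of all tested genes had a positive one.

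The genes of lowest p among those targets lay in opposite directions. Cbs, which makes cystathionine from homocysteine, had 27.5 and 32.6 FPKM in JIB-04 livers and 48.3 and 56.4 FPKM in untreated livers, without overlap, with a log2 change of -0.78 and an adjusted p of 0.0504 (limma). Sqstm1, the autophagy receptor p62, had 113 and 126 FPKM in JIB-04 livers and 73.3 and 77.1 FPKM in untreated livers, without overlap, with a log2 change of 0.66 and an adjusted p of 0.0548 (limma). Fgf21, a hormone that the liver secretes under fasting and amino acid stress, was below the filter, with 4 and 0 reads in JIB-04 livers and 50 and 69 reads in untreated livers, or 0.0981 and 0 FPKM against 1.43 and 1.92 FPKM. A count of 0 in JIB-04 2 allows up to 0.0859 FPKM, both JIB-04 livers were lower, and with no filter on low values the adjusted p was 0.143 (limma). Gdf15, a hormone of nausea and reduced food intake, had 9.61 and 2.99 FPKM in JIB-04 livers and 1.001 and 3.37 FPKM in untreated livers, with JIB-04 1 alone high (adjusted p 0.601, limma). Of 17 cytosolic aminoacyl-tRNA synthetases, many of them known ATF4 targets, none was called and the median log2 change was 0.14. The log2 change was positive in 12, beside 51.4% of all tested genes. Without overlap, 10 were higher and 4 lower, beside 24.6% and 21.8% of all tested genes. The lowest p-values were those of Qars (log2 change 0.33, adjusted p 0.274) and Iars (log2 change 0.31, adjusted p 0.269).

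**Figure D3:**
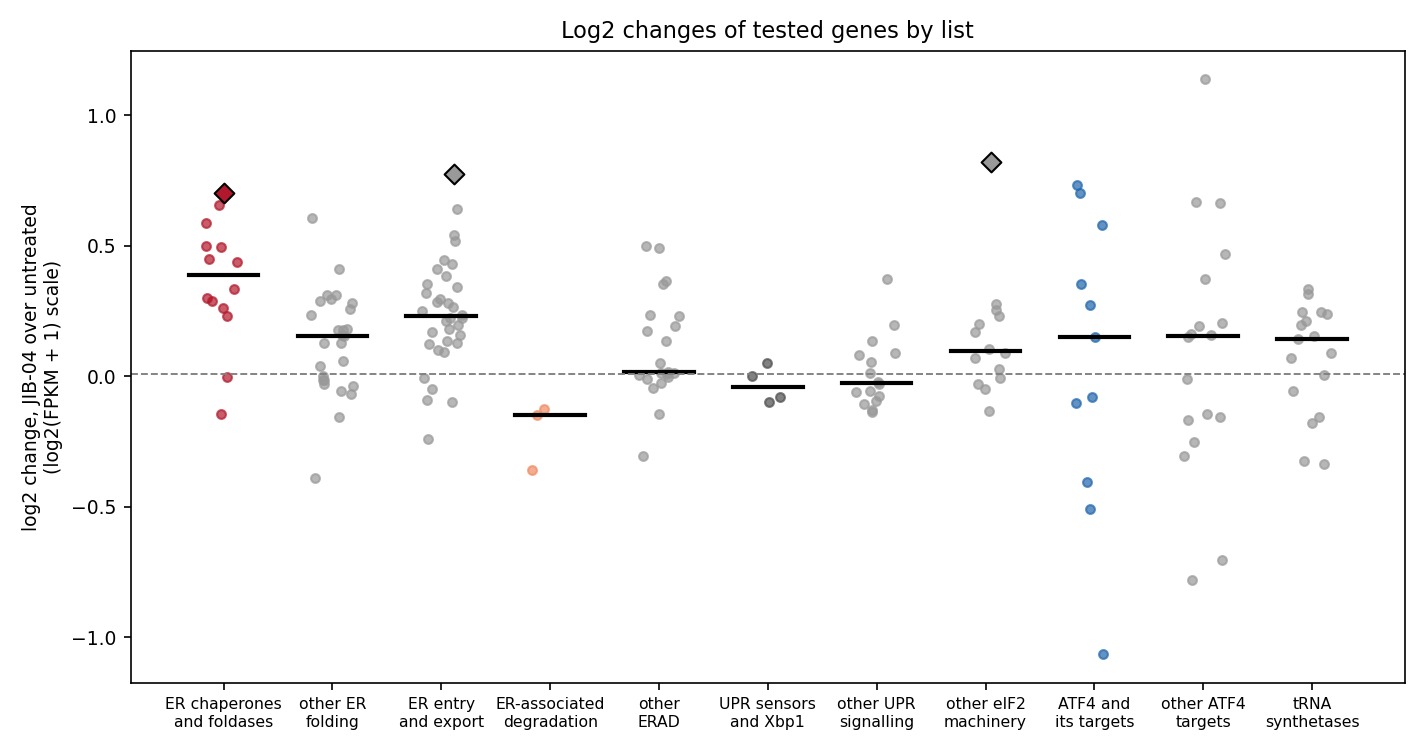
Each point is the log2 change of a tested gene on the log2(FPKM + 1) scale, JIB-04 over untreated (vertical), spread sideways within its list (horizontal), with diamonds for called genes, bars for list medians and a dashed line at the median of all tested genes, 0.01. The medians run from -0.15 for ER-associated degradation to 0.39 for ER chaperones and folding enzymes, and the only diamonds are Pdia4, Stt3b and Impact.

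Because values near the threshold turn on the estimate of spread, the test was also made with voom (limma) on the recovered reads. It called 2.86% of all tested genes higher and 1.91% lower. Among the 32 genes it called 4 higher, Pdia4, Pdia3, Dnajb9 and Shmt2, and 1 lower, Atf5, with an adjusted p of 0.0499. The 4 were also called when the filter was raised to a mean of 5 FPKM. That filter called 4.26% of its 5329 tested genes in either direction, against 2.14% as reported. Neither Hspa5 nor Calr was called under any of 12 alternatives.

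**Figure D4:**
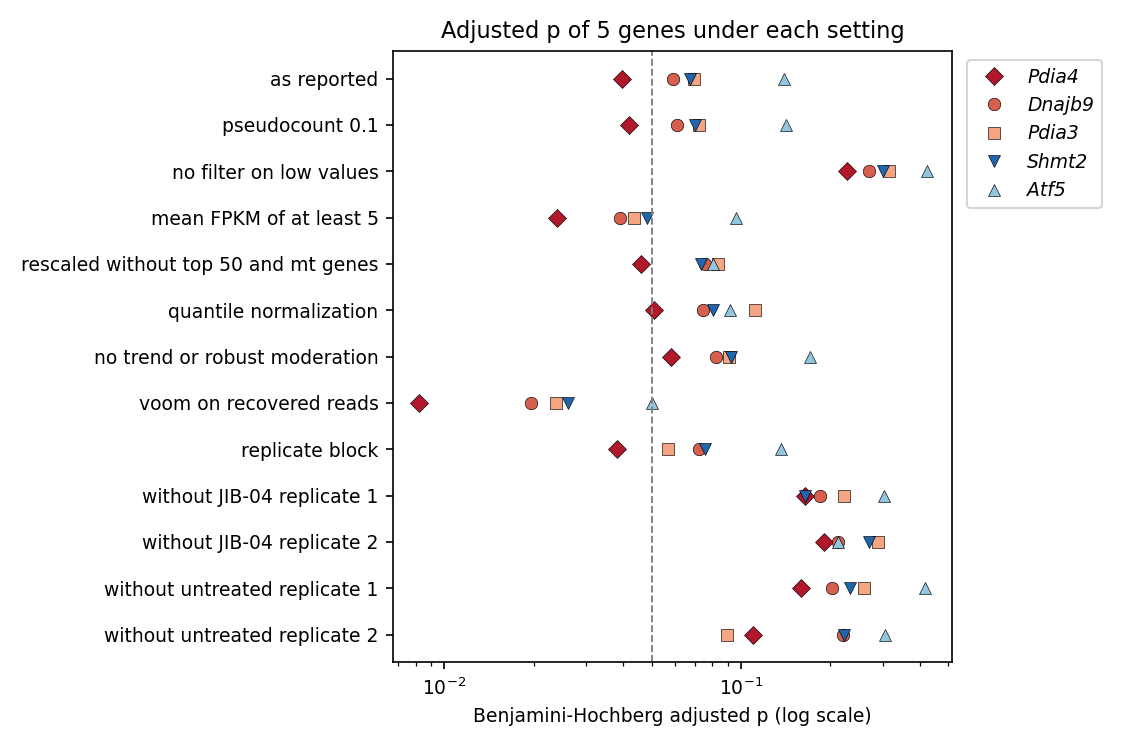
The Benjamini-Hochberg adjusted p (horizontal, log scale) of Pdia4, Dnajb9, Pdia3, Shmt2 and Atf5 is shown under the test as reported and 12 alternatives (vertical), with a dashed line at 0.05. Pdia4 lies left of the line as reported and in 5 of the 12 alternatives, and all 5 genes lie right of it whenever a library is left out.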

How the data were processed

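Liver RNA of 4 NSG mice, 2 given JIB-04 and 2 untreated, was extracted with Trizol and sequenced after a company's standard library preparation, per the labels' protocols. The authors deposited 1 table of FPKM values per gene and library, with gene lengths, coordinates and biotypes. The build is GRCm39 (mm39), per the submitters' processing notes, while no source used here names the aligner, the counter, the annotation or whether strand was used, so reads of genes that overlap on opposite strands may not have been separated.

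FPKM was multiplied by each gene's length and divided by the smallest such product above 0 in the library. This gave whole numbers for 100% of values (tolerance 0.01). They were taken as reads, on the assumption that the smallest product is 1 read, and supplied the depths. Groups were compared two-sided with limma 3.58.1 (R 4.3.3), by lmFit and eBayes with a trend and robust variances, on log2(FPKM + 1). Genes averaging at least 1 FPKM over all 4 libraries entered, with Benjamini-Hochberg adjustment over all 10819 tested genes. This scale understates changes of low genes. A fold is the ratio of mean FPKM, and ± is the SD of 2 libraries. Floors of 3 reads cover counting error only. Promoter windows of RefSeq (GRCm38.p6) were found for 35 of the 39 symbols, and 4 motifs were chosen and searched in Python 3.11.15.

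The 39 genes, the lists of other pathway genes and the marker lists were chosen with earlier results of these data known. All called genes, the transcription factors, the sensors, Trib3, Asns, Hspa5, Hsp90b1, Herpud1 and the 4 largest log2 changes of the ATF4 and chaperone groups were given in every library, and other lists by their called genes, otherwise by the 2 of lowest p, with Fgf21, Gdf15, Ero1b and Syvn1. Further members' values are given as descriptions. Most tRNA synthetase genes were matched by their older symbols, through RefSeq synonyms. Alternatives were another pseudocount, filters, scaling, moderation, voom, a replicate block and leaving out each library.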

Additional observations from a re-analysis of the deposited data

How the results depend on the processing

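Of the 39 genes, 1 was called higher as reported. The count was 0 with no filter on low values, 4 with a mean of at least 5 FPKM, 0 with quantile normalization, 0 without trend or robust moderation, 4 with voom on recovered reads, and 0 to 0 when each library was left out. With voom 1 gene was called lower, against 0 as reported. Calls over all tested genes, 232 as reported, numbered 20 with no filter, 516 with voom and 23 to 156 when each library was left out. The median log2 change of the ATF4 group, 0.15 as reported, was 0.029 with no filter, -0.24 with a mean of at least 5 FPKM, and 0.045 to 0.26 when each library was left out. That of the chaperones, 0.39 as reported, was 0.26 to 0.48 when each library was left out, lowest without untreated 1.

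Pdia4 had an adjusted p (limma) of 0.227 with no filter, 0.0508 with quantile normalization and 0.0580 without trend or robust moderation. Impact had 0.200 with no filter, and Stt3b had 0.211 with no filter and 0.0504 without trend or robust moderation. Without a filter many scarce genes enter the adjustment, and leaving out a library leaves 1 animal in its group, assumed to vary like the other group.

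Log2 changes near 0 changed sign in 9 genes. Atf6, 0.00 as reported, was -0.00011 with a pseudocount of 0.1, -0.047 rescaled without the most abundant and mitochondrial genes, -0.017 with quantile normalization and -0.016 with voom. When each library was left out, the log2 change ranged from -0.21 to 0.053 in Atf4, -0.21 to 0.0065 in Ddit3, -0.30 to 0.097 in Ern1, -0.0090 to 0.11 in Eif2ak3, -0.12 to 0.12 in Atf6, -0.22 to 0.063 in Xbp1, -0.094 to 0.085 in Dnajb11, -0.32 to 0.030 in Dnajc3 and -0.29 to 0.042 in Edem1. The cause of these shifts was not tested.

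The shared replicate numbers pair nothing in the labels, and same-numbered libraries deviated with a correlation of -0.049 over the tested genes. With the replicate block, 357 genes were called over all tested genes and 1 of the 39, Pdia4 (adjusted p 0.0381, limma). Among the 7 genes below the filter, Asns, Phgdh and Aldh1l2 had at most 15 reads in any library.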

Other observations

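The CCAAT and CCACG element was also present in the promoter windows of genes outside the 39. Altogether 37 symbols carried it. Of the 7 among the 39 genes, all tested, 6 had a positive log2 change and the median was 0.44. Of 8 other tested genes with the element, 4 had a positive and 4 a negative log2 change, none was called, and the median was 0.02. These 8 are not all outside the pathway. Syvn1 (log2 change 0.37) is in the list of other degradation genes and Ero1b (log2 change -0.00052) in that of other folding genes. The C/EBP-ATF element stood in windows of 1219 symbols. Of the 208 tested ones outside the 39 genes, 110 had a positive and 98 a negative log2 change. Among them 6 were called higher and 2 lower in JIB-04 livers. Of all tested genes, 51.4% had a positive log2 change, 1.53% were called higher and 0.619% lower. These counts were made after the values had been seen, and no difference between them was tested.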
